A study of Mus musculus with 18 samples.

Results

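RNA from sorted cortical interneurons was compared between Htr3a-KO and control mice at E18.5 (embryonic days), the age at which these cells enter the cortical plate. The comparison takes the 3 arrays labelled as E18.5 Htr3a-KO against the 3 labelled as E18.5 control, 6 of the 18 arrays of the series, and covers every probe set to which the array annotation gives a single gene. The labels give the controls as GAD65-GFP and the knockouts as Htr3a-KO;GAD65-GFP, so both groups carried the reporter, in which GFP follows the GABA-synthesis gene GAD65 (Gad2). At least 4 brains of a litter were pooled for an array, and the 3 arrays of a group stand for 3 litters. By their labels the cells come from the caudal ganglionic eminence (CGE), a source of cortical interneurons in the embryo. The labels used here do not give the strain, the sex of the pooled brains or the part of Htr3a that is deleted. The series also holds both genotypes at E14.5 and P2, each with 3 arrays per genotype, and these ages are used below only to set the E18.5 differences against.

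Htr3a encodes the subunit that forms the serotonin-gated cation channel, the only ligand-gated ion channel among serotonin receptors. In the cortex it marks the superficial interneurons born in the CGE, which migrate tangentially and then turn radially into the cortical plate. Semaphorins are guidance cues that act through plexin receptors, with neuropilins as co-receptors for secreted class 3 semaphorins, and the title of the series names PlexinA4 and Semaphorin3A.

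The values are log2 intensities. Array medians at E18.5 lay between 6.36 and 6.43, and correlations over the genes tested were 0.981 to 0.995 within a genotype and 0.977 to 0.991 between genotypes. On the first principal component of the 6 arrays (38.6% of the variance), control array 3 lay nearest to the Htr3a-KO arrays and control array 2 lay farthest from them. Control array 2 also stood apart in Y-linked transcripts: Kdm5d read 3.05 there and 7.50 to 8.74 on the other 5 arrays, and Uty read 4.12 there and 5.83 to 6.94 on the others. The difference between the 3' and 5' Gapdh control probe sets, a measure of RNA integrity, was 1.74 ± 0.10 (SD, n = 3) in controls and 1.95 ± 0.17 in Htr3a-KO (two-sided exact permutation test, p = 0.2, where 0.1 is the smallest p that 3 against 3 arrays allow).

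The cells' labels were set against marker genes. Gad1, which makes GABA, read 10.93 to 11.86 over the 6 arrays, and the CGE transcription factors Prox1, Sp8 and Nr2f2 read 6.56 to 7.42, 7.72 to 9.52 and 8.78 to 9.51. The RNA was not of this class alone. Lhx6 and Sst, which mark interneurons of the medial ganglionic eminence (MGE), read 9.12 to 9.88 and 8.24 to 10.20, and Neurod6, a transcription factor of excitatory neurons, read 11.46 to 12.26. In such bulk RNA, fewer cells of a type and less RNA per cell cannot be told apart.

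With 1 probe set per gene, 3 of 14292 genes differed between the genotypes at E18.5 (0.021%), 1 higher (0.007%) and 2 lower (0.014%) in Htr3a-KO. The threshold was an adjusted p under 0.05 in limma, with Benjamini-Hochberg adjustment over all genes tested. Most differences were small: 95.3% of genes lay within 0.5 log2 units of no difference, and the median over all genes was −0.06. Without adjustment, 1844 genes (12.9%) had a p under 0.05, 493 higher (3.45%) and 1351 lower (9.45%). The 3 and 3 arrays did not overlap for 2965 genes (20.7%), 794 higher (5.56%) and 2171 lower (15.2%) in Htr3a-KO. The count depended on 1 array: without control array 3 it was 20 genes, and without any other E18.5 array it was 2 or 3.

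**Figure D1:**
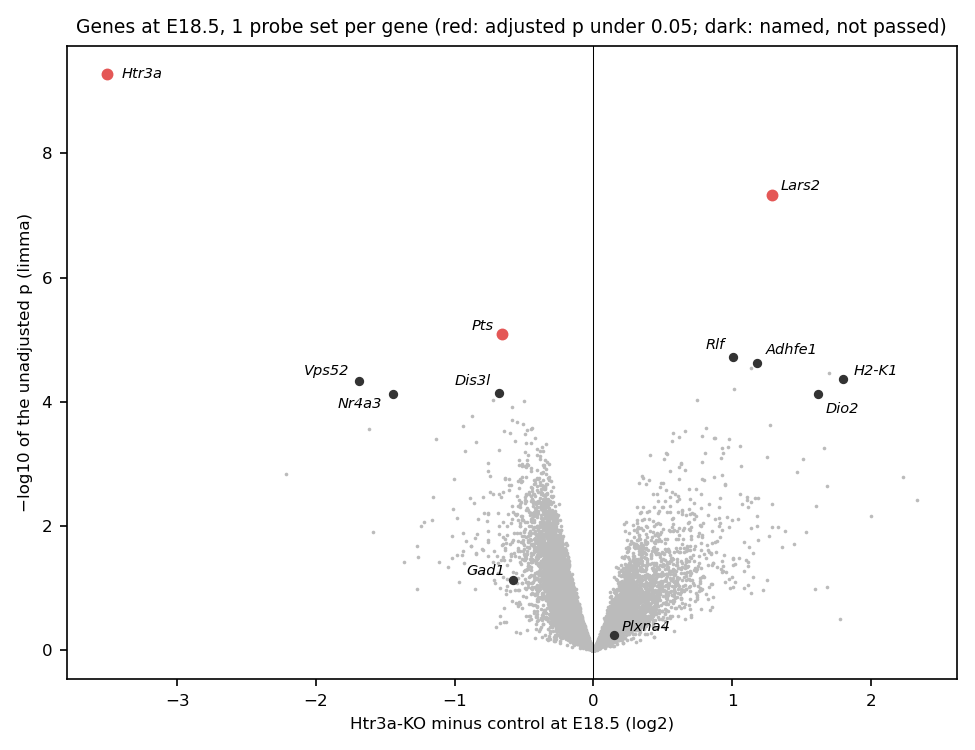
Each point is a gene at E18.5, with the Htr3a-KO minus control difference in log2 units on the x axis and −log10 of the unadjusted limma p on the y axis. Htr3a at −3.51, Lars2 at +1.29 and Pts at −0.66 (red) passed the threshold, and most other genes lay within 0.5 of 0.

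Htr3a itself, the targeted gene, was read by 1 probe set. The control arrays read 9.64, 10.79 and 10.58 and the Htr3a-KO arrays 6.61, 6.79 and 7.09. The groups did not overlap, and Htr3a fell by 3.51 (SE 0.26, adjusted p = 7.66e-06), with −3.28 without control array 2 (adjusted p = 7.16e-05). Whether the probe set lies inside the deleted part is not in the labels, so this value checks the labels only as far as the transcript it reads is lost. The difference was larger at E18.5 than at the other ages, where it was −0.75 at E14.5 and −1.94 at P2. The control means were 8.04 at E14.5, 10.34 at E18.5 and 8.79 at P2, and the Htr3a-KO means 7.30, 6.83 and 6.84. The difference of effects was −2.16 (SE 0.32, limma unadjusted p = 4.88e-06), which did not pass over all genes (adjusted p = 0.0697).

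Lars2, the mitochondrial leucyl-tRNA synthetase, read 7.52, 7.56 and 7.51 in controls and 8.75, 8.76 and 8.94 in Htr3a-KO. All 3 Htr3a-KO arrays lay above all controls, and the transcript rose 2.44-fold (+1.29, SE 0.13, adjusted p = 3.31e-04). The rise rests on 1 of 3 probe sets, the one with the highest mean, which stands for the gene. The others gave −0.07 and −0.34, and the mean of the 3 probe sets gave +0.29 (adjusted p = 0.168).

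Pts encodes pyruvoyl-tetrahydropterin synthase, an enzyme of the synthesis of tetrahydrobiopterin, the cofactor that tryptophan and tyrosine hydroxylases need. It read 8.84, 8.88 and 8.98 in controls and 8.24, 8.31 and 8.18 in Htr3a-KO. The groups did not overlap, and Pts fell by 0.66 (SE 0.10, adjusted p = 0.0390). The call was lost when any 1 of the 6 arrays was left out (differences of −0.69 to −0.62, adjusted p = 0.0551 to 0.181) and in a fit of the 6 E18.5 arrays alone (adjusted p = 0.169).

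Testing each gene-named probe set as a feature of its own gave more calls, 21 of 26104 (0.0804%), 14 higher (0.0536%) and 7 lower (0.0268%) in Htr3a-KO. They belong to 19 genes, and 7 of the 21 were the probe set that stands for its gene. For 5 of the 21, all among the higher ones, the control mean lay below the filter level of 5.255, so their differences are taken against a dim level and are no measure of size. Lztfl1, which encodes a regulator of protein traffic to cilia, holds 2 of these 5. One read 4.17, 3.90 and 4.05 in controls and 9.04, 9.01 and 8.44 in Htr3a-KO. The other read 5.03, 4.87 and 4.84 in controls and 6.19, 6.05 and 5.63 in Htr3a-KO. On both, every Htr3a-KO array lay above every control. The other 3 Lztfl1 probe sets gave +0.85, −0.22 and −0.45, so the probe sets of this gene disagreed in direction.

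Other probe sets rose in Htr3a-KO. Mapk6, an atypical MAP kinase, read 6.59, 6.22 and 6.57 in controls and 8.50, 8.04 and 8.01 in Htr3a-KO (+1.72, SE 0.20, adjusted p = 0.00136). Its 3 other probe sets gave −0.29, +0.18 and +0.24. Fyco1, an adaptor that links autophagosomes to microtubule motors, read 5.48, 5.30 and 5.85 in controls and 6.90, 6.84 and 7.07 in Htr3a-KO (+1.39, adjusted p = 0.00136), and its other probe set gave +0.71. On these 2 probe sets the genotypes did not overlap. The remaining rises were in Atg4c, a protease of autophagy (+1.30, adjusted p = 0.0101), Pcdh15, a cadherin known from sensory hair cells (+1.35, adjusted p = 0.0247), Map3k3, a MAP kinase kinase kinase (+0.68), Rlf, a zinc finger protein (+1.01), Adhfe1, a mitochondrial dehydrogenase (+1.18), Calu, a calcium-binding protein of the secretory pathway (+1.17), and 3 probe sets of 2 gene models known only by number. Atg4c, Pcdh15 and Adhfe1 are the other 3 with a control mean below the filter level. Further probe sets gave −0.12 for Calu, −0.15 and +0.16 for Map3k3, and −0.29 and −0.26 for Rlf. Pcdh15 gave +0.07 and, below the filter, +0.58 on its others. Atg4c gave +0.49 on its second, and Adhfe1 gave +0.41 and, below the filter, −0.12.

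Among the falls, Ppp1cb, a catalytic subunit of a serine/threonine phosphatase, read 7.19, 7.58 and 7.27 in controls and 6.01, 5.82 and 5.74 in Htr3a-KO (−1.49, SE 0.18, adjusted p = 0.00160). Its 3 other probe sets gave +0.12 to +0.21. Bace1, the beta-secretase that cleaves the amyloid precursor protein, read 8.24, 8.06 and 7.82 in controls and 6.99, 7.06 and 6.98 in Htr3a-KO (−1.03, adjusted p = 0.0137), and its other 3 probe sets gave −0.30, −0.33 and +0.29. Arrdc4, an arrestin-domain protein, changed by −1.16 (adjusted p = 0.0355), with −0.94 on its second probe set. Cap1, which acts on actin filaments, changed by −1.34 (adjusted p = 0.0355), with −1.62 on its second probe set. Map3k9, a mixed-lineage kinase, changed by −0.64 (adjusted p = 0.0353), with +0.06 and, below the filter, +0.18 on its other probe sets. Htr3a and Pts complete the list. For Lztfl1, Lars2 and Bace1 another probe set of the same gene went the opposite way at an unadjusted p under 0.05, and for Adhfe1, Arrdc4, Atg4c, Bace1, Cap1, Fyco1 and Lztfl1 another went the same way.

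**Figure D2:**
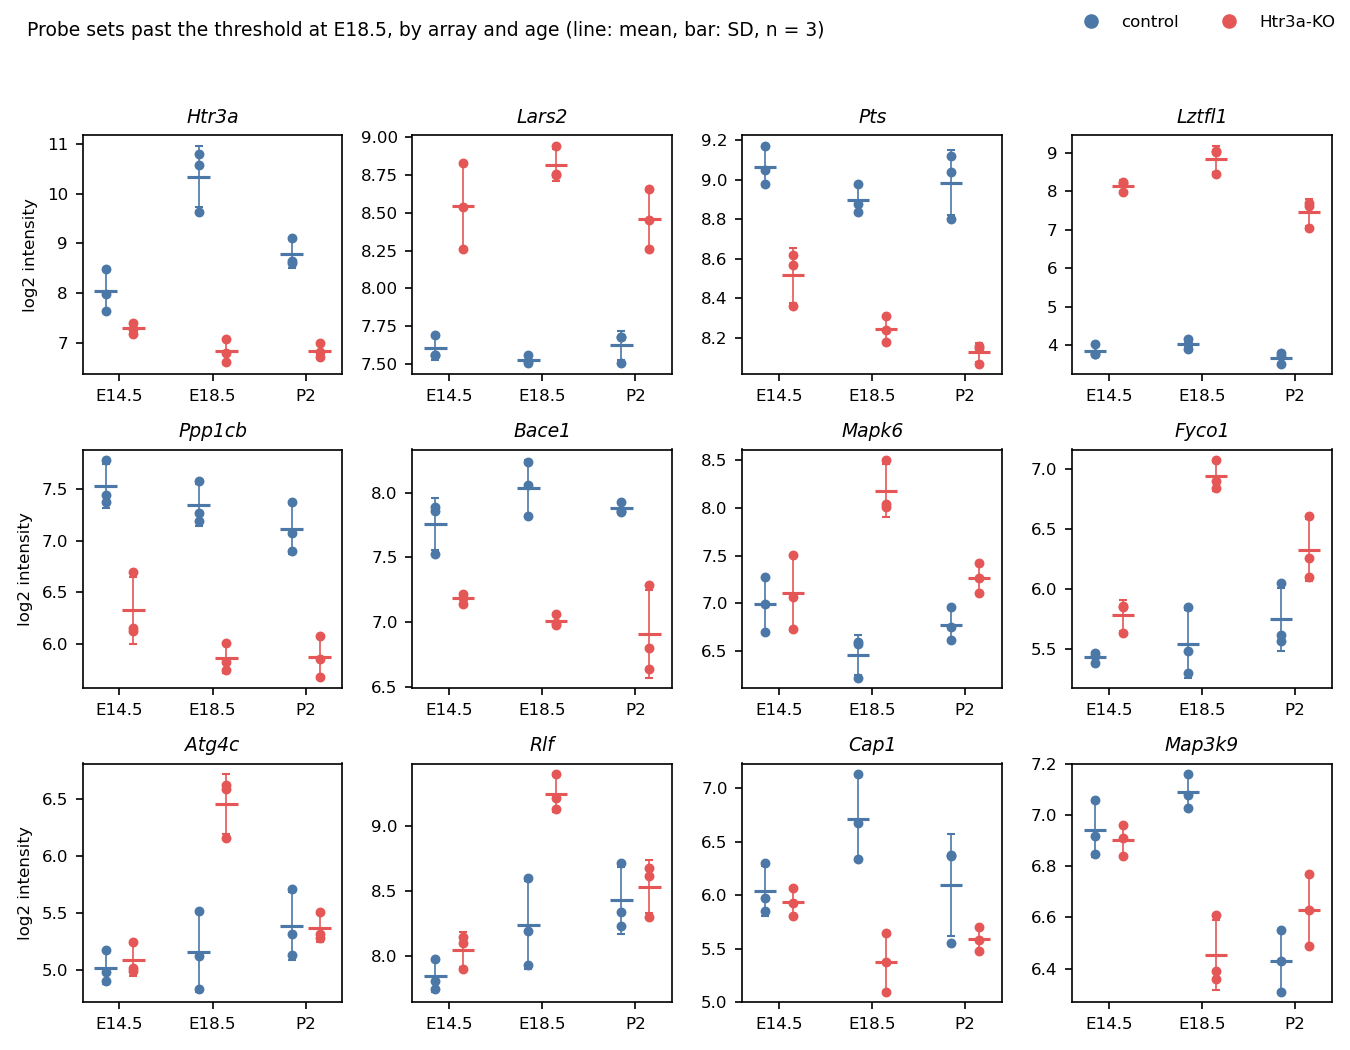
Log2 intensity on each of the 18 arrays (points), with group means (lines) and SD (bars, n = 3), for 12 of the probe sets that passed at E18.5, by age and genotype. Htr3a, Lars2, Pts, Lztfl1, Ppp1cb, Bace1 and Fyco1 did not overlap at any age, Mapk6 overlapped at E14.5 alone, and Atg4c, Rlf, Cap1 and Map3k9 overlapped at both other ages.

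The number of probe sets called moved with single arrays. It was 278 without control array 3 and 6, 7, 6, 9 and 9 without control array 1, control array 2 and Htr3a-KO arrays 1, 2 and 3. The probe sets of Htr3a, Mapk6, Ppp1cb, Lars2, Fyco1 and the first one given for Lztfl1 passed in all 6 of these fits, and the other 15 passed in 1 or 2 of them. In a fit of the 6 E18.5 arrays alone 8 probe sets passed, 6 of them among the 21. In a fit that added the probe sets without a single gene name, 70 of the gene-named ones passed (0.268%) beside 115 of 5426 unnamed ones (2.12%).

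Several of the genes lie on chromosome 9, which carries Htr3a. By the order of protein-coding genes in RefSeq's GRCm38.p6 assembly, 11 genes lie between Htr3a and Pts, which are 1.62 Mb apart. Between Htr3a and Bace1, 3.06 Mb apart, lie 23. Lars2, Lztfl1 and Fyco1 form a separate cluster on the same chromosome, with 4 genes between Lars2 and Lztfl1 and 1 between Lztfl1 and Fyco1. Lars2 lies 74.47 Mb from Htr3a, with 717 genes between them, and Mapk6 lies 26.49 Mb from Htr3a. Of the 21 probe sets, 8 lie on chromosome 9. Besides Htr3a, 2 of 519 probe sets within 20 Mb of it passed (0.385%), 5 of 899 on the rest of chromosome 9 (0.556%) and 13 of 24585 on other chromosomes (0.0529%). At an unadjusted p under 0.05 the shares were 17.7%, 17.5% and 14.8%. The strain of the DNA that flanks the targeted allele is not in the labels, and its part in these differences was not tested.

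The 10 genes given next had the smallest p among those that did not pass, 5 in each direction. H2-K1, a classical MHC class I heavy chain, read 8.23, 7.96 and 7.68 in controls and 9.88, 9.81 and 9.58 in Htr3a-KO (+1.80, adjusted p = 0.0738). It passed in a limma fit of the 6 E18.5 arrays alone (adjusted p = 0.0223). Over 19 alternatives its adjusted p in limma ran from 0.00278 to 0.276. Dio2, the deiodinase that activates thyroid hormone, read 6.33, 7.66 and 7.78 in controls and 8.73, 8.77 and 9.12 in Htr3a-KO (+1.62, adjusted p = 0.0823). For both genes the Htr3a-KO arrays lay above every control, and control array 1 was the lowest for Dio2. The other 2 Dio2 probe sets gave −0.10 and +0.46, and the mean of its probe sets +0.66 (adjusted p = 0.236). The 23 probe sets of genes whose symbol starts with H2- were grouped after their values were seen. Of these, 7 were higher and 3 lower at an unadjusted p under 0.05. Of all gene-named probe sets 15% reached that level in either direction. All 7 higher ones of the H2- group read H2-K1 or its close relative H2-D1, whose probe sets may read each other's transcripts. The others on the higher side were Adhfe1 (+1.18, adjusted p = 0.0670), Rlf (+1.01, adjusted p = 0.0670) and Snhg3, a host transcript of small nucleolar RNAs (+1.01, adjusted p = 0.0823). Rlf gave −0.29 and −0.26 on its other 2 probe sets and +0.15 with them averaged (adjusted p = 0.624), while Adhfe1 averaged +0.80 and passed (adjusted p = 0.0345).

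On the lower side, Nr4a3, an orphan nuclear receptor and immediate early gene, read 12.37, 11.62 and 11.89 in controls and 10.51, 10.88 and 10.15 in Htr3a-KO (−1.45, adjusted p = 0.0823). Its other 2 probe sets gave −0.28 and 0.00, and with probe sets averaged Nr4a3 gave −0.86 and passed (adjusted p = 0.0235). Vps52, part of a complex that tethers vesicles at the Golgi, read 9.77, 9.30 and 8.84 in controls and 7.37, 7.24 and 8.24 in Htr3a-KO (−1.69, adjusted p = 0.0738), its second probe set gave +0.36 and the mean of both −0.66 (adjusted p = 0.261). Neither gene overlapped between the groups on these probe sets. The remaining values were −0.68 for Dis3l, an exonuclease of the RNA exosome (adjusted p = 0.0823), −0.72 for the clock repressor Cry2 (adjusted p = 0.0880) and −0.50 for Mlxip, a glucose-responsive transcription factor (adjusted p = 0.0880).

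The gene lists below give the members tested, the number that passed and the median difference, to be read against −0.06 over all genes, 37.8% of genes with a positive difference, and 3.45% higher and 9.45% lower at an unadjusted p under 0.05. Over the 35 lists of pathways and markers, Htr3a was the only member that passed with 1 probe set per gene. Single members named for a low unadjusted p were chosen after their values were seen.

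Among serotonin receptors and serotonin-handling genes, 8 of 15 listed were above the filter, with 1 lower (Htr3a) and a median of −0.10. Htr3b, the second subunit of the channel and the direct neighbour of Htr3a, was dim: it read 4.44, 4.43 and 4.30 in controls and 4.11, 4.15 and 4.33 in Htr3a-KO. Its groups overlapped below the filter level. The receptors Htr1a and Htr1b differed by −0.28 (adjusted p = 0.499) and −0.18 (adjusted p = 0.502), and Maoa, which degrades serotonin, by +0.10 (adjusted p = 0.757). Of 6 nicotinic acetylcholine receptor genes, which belong to the same channel superfamily, 0 passed and the median was −0.13. Its Chrna7 and Chrna3 differed by −0.14 (adjusted p = 0.885) and −0.37.

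Of 29 semaphorin, plexin and neuropilin genes 0 passed, and 2 were higher and 1 lower at an unadjusted p under 0.05. The median was +0.13 with 1 probe set per gene and −0.02 over all 64 probe sets of these genes. The ligand Sema3a read 9.29, 9.26 and 8.75 in controls and 8.97, 8.82 and 8.87 in Htr3a-KO, with overlap (−0.21, SE 0.25, adjusted p = 0.752). Its co-receptor Nrp1 read 11.52, 11.78 and 10.84 in controls and 11.49, 11.12 and 11.36 in Htr3a-KO (−0.06, SE 0.30, adjusted p = 0.952). In both genes control array 3 was the lowest of the 6.

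The receptor Plxna4 gave opposite signs on its 2 probe sets. The one that stands for the gene read 10.53, 9.92 and 10.60 in controls and 10.89, 10.25 and 10.35 in Htr3a-KO (+0.15, SE 0.25, adjusted p = 0.836). The second read 8.81, 8.26 and 8.66 in controls and 7.59, 7.91 and 7.59 in Htr3a-KO. All 3 Htr3a-KO arrays lay below the controls there, at −0.88 (SE 0.22, unadjusted p = 0.00125), which did not pass over all probe sets (adjusted p = 0.140). The mean of both gave −0.37.

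Other members of the family were the class 4 semaphorins, whose values diverged. Sema4d read 8.62, 8.17 and 8.44 in controls and 9.16, 8.72 and 9.69 in Htr3a-KO (+0.78, unadjusted p = 0.0137, adjusted p = 0.295). Sema4b read 8.46, 8.61 and 8.44 in controls and 8.21, 8.14 and 7.74 in Htr3a-KO (−0.47, unadjusted p = 0.00105, adjusted p = 0.175). The receptor Plxna2 differed by +0.54 (adjusted p = 0.387), and Sema3c, a secreted cue, by +0.17 (adjusted p = 0.787). In the signal transduction downstream of plexins, 0 of 24 genes passed and the median was −0.09. The collapsin response mediator genes Dpysl2, Dpysl3 and Crmp1 differed by −0.13, −0.11 and −0.22, and Mical1, an actin-oxidising enzyme bound by plexins, by +0.47 (unadjusted p = 0.00615, adjusted p = 0.250).

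**Figure D3:**
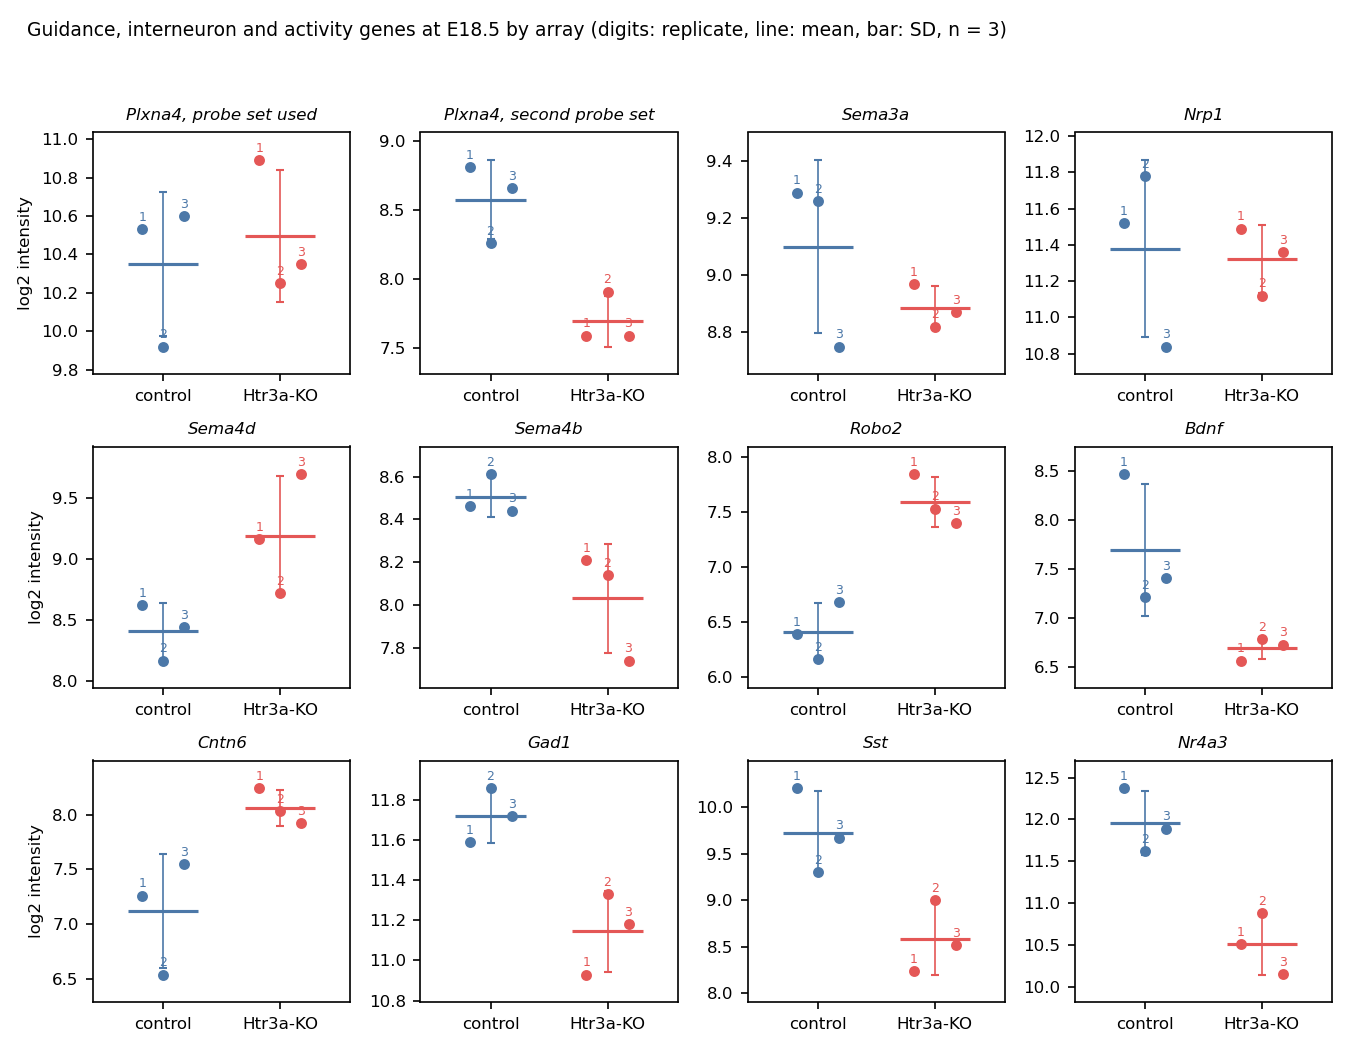
Log2 intensity on each E18.5 array (points with the replicate number), group means (lines) and SD (bars, n = 3) for 11 genes, with both probe sets of Plxna4. The genotypes overlap for Sema3a, Nrp1 and the Plxna4 probe set that stands for the gene. They are apart for the second Plxna4 probe set (−0.88) and the 8 other genes, of which 0 passed the adjusted threshold. Several of the 8 were named for a low p after their values were seen. Of all genes 20.7% were apart, and of all gene-named probe sets 21.5%.

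Other guidance systems had 0 genes past the threshold. Of 33 Slit, Robo, netrin, neuregulin and chemokine genes, 4 were higher and 2 lower at an unadjusted p under 0.05, with a median of +0.13. Robo2, a Slit receptor, read 6.39, 6.16 and 6.68 in controls and 7.84, 7.53 and 7.40 in Htr3a-KO (+1.18, adjusted p = 0.253). Bdnf, a neurotrophin that activity induces, read 8.47, 7.22 and 7.41 in controls and 6.57, 6.79 and 6.73 in Htr3a-KO (−1.0, adjusted p = 0.202). Neither overlapped, and control array 1 was far above the rest for Bdnf. Reln, the secreted cue of layering, differed by +0.18 and the netrin receptor gene Neo1 by +0.32 (adjusted p = 0.361). Of 20 Eph receptors and ephrins 0 passed even at an unadjusted p under 0.05, and the median was −0.02, with Epha3 at −0.17 and Efnb2 at −0.02.

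The machinery of migration gave values close to 0. Of 37 genes 0 passed and the median was 0.00, with the tubulin gene Tuba1a at −0.01, the microtubule regulator Stmn1 at −0.03 and the actin-severing factor Cfl1 at +0.15. Elmo1, an activator of Rac with its partner Dock proteins, read 8.73, 8.92 and 8.85 in controls and 8.44, 8.36 and 7.93 in Htr3a-KO (−0.59, unadjusted p = 0.00483, adjusted p = 0.242). Most cadherin and other adhesion genes gave positive differences: of 34 genes 27 had a positive difference, 5 were higher and 0 lower at an unadjusted p under 0.05, and the median was +0.16. Their mean by array overlapped between genotypes, and its difference of +0.26 was +0.15 without control array 2. Over their 79 probe sets 18 were higher and 1 lower at that level, where 15% of all gene-named probe sets reached it in either direction. Cntn6, a contactin, read 7.26, 6.54 and 7.55 in controls and 8.24, 8.03 and 7.92 in Htr3a-KO (+0.95, adjusted p = 0.212), and the protocadherins Pcdh10, Pcdh11x and Pcdh9 differed by +0.61, +0.58 and +0.56.

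Markers of the sorted class did not pass, apart from Htr3a. Of 10 GABAergic genes 0 reached an unadjusted p under 0.05 and the median was −0.06. Gad1 read 11.59, 11.86 and 11.72 in controls and 10.93, 11.33 and 11.18 in Htr3a-KO. The groups did not overlap, at −0.58 (SE 0.30, adjusted p = 0.444). On the second Gad1 probe set they did not overlap either, at −0.94 (limma with no filter, unadjusted p = 0.00796). Over the 17 probe sets of the GABAergic list 0 were higher and 1 lower at an unadjusted p under 0.05. Gad2, the gene that the reporter is named for, read 9.34, 10.35 and 9.32 in controls and 9.32, 9.36 and 9.40 in Htr3a-KO (−0.31, adjusted p = 0.795). The difference in Gad2 came from control array 2 and was +0.03 without it. Of 23 CGE markers the median was −0.02, with the nuclear receptor Nr2f1 at +0.19, the cannabinoid receptor Cnr1 at −0.06 and Id2 at −0.04.

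Of 14 MGE interneuron markers 11 had a negative difference, 1 was higher and 2 lower at an unadjusted p under 0.05, and the median was −0.20. Sst, the neuropeptide somatostatin, read 10.20, 9.30 and 9.67 in controls and 8.24, 9.0 and 8.52 in Htr3a-KO. All Htr3a-KO arrays lay below the controls, at −1.14 (SE 0.25, unadjusted p = 3.90e-04, adjusted p = 0.143). The related peptide gene Cort differed by −0.38 (adjusted p = 0.242) and the transcription factor Sox6 by +0.31 (adjusted p = 0.372). Lhx6, which specifies the whole class, differed by −0.16 (adjusted p = 0.865). Striatal and excitatory markers had 0 of 13 and 0 of 19 at an unadjusted p under 0.05, with medians of +0.04 and +0.02.

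Most progenitor and glial markers gave positive differences, and 0 of them passed. Of 19 progenitor markers 18 had a positive difference, 7 were higher and 0 lower at an unadjusted p under 0.05, and the median was +0.51. Hes5, a Notch target of radial glia, read 7.65, 9.44 and 9.03 in controls and 10.24, 10.12 and 10.58 in Htr3a-KO (+1.61, adjusted p = 0.242). Tnc, a matrix protein of glial progenitors, read 8.49, 9.15 and 10.31 in controls and 10.62, 10.54 and 10.65 in Htr3a-KO (+1.29, adjusted p = 0.238). In both genes every Htr3a-KO array lay above every control, and control array 1 was the lowest. Of 14 astrocyte markers 12 had a positive difference, 7 were higher and 0 lower, and the median was +0.68. The water channel Aqp4 read 3.60, 4.17 and 5.91 in controls and 6.28, 6.38 and 6.07 in Htr3a-KO (+1.68, adjusted p = 0.213), from a control mean below the filter level, and the enzyme Aldoc differed by +1.11 (adjusted p = 0.364).

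Of 13 oligodendrocyte lineage markers 3 were higher and 0 lower at an unadjusted p under 0.05, with a median of +0.40. Pdgfra, the growth factor receptor of oligodendrocyte precursors, differed by +0.69 (adjusted p = 0.336), and Olig1 by +0.51. Of 31 cell cycle genes 26 had a positive difference and 0 reached that level, with a median of +0.31. Their mean by array overlapped between genotypes, and its difference of +0.26 was +0.06 without control array 1 or without Htr3a-KO array 3. Of 17 endothelial and mural markers 16 had a positive difference and 1 was higher, with a median of +0.54. Its pericyte genes Pdgfrb and Rgs5 differed by +1.45 (adjusted p = 0.318) and +1.02 (adjusted p = 0.454). Microglia markers had 0 of 19 and meningeal markers 0 of 8, with medians of +0.14 and −0.02. Of 9 Cajal-Retzius markers 1 was higher, with a median of +0.21, and the 4 erythroid genes had a median of −0.10.

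The mean over each marker list was taken array by array. The astrocyte mean was 7.76, 8.21 and 8.62 in controls and 8.79, 8.85 and 8.93 in Htr3a-KO, and the progenitor mean was 8.66, 9.33 and 9.42 against 9.61, 9.58 and 9.98. The oligodendrocyte mean was 8.25, 8.82 and 8.90 in controls and 8.91, 8.98 and 9.19 in Htr3a-KO. Control array 1 was the lowest for all 3 lists, and without it the differences were +0.45, +0.35 and +0.17, against +0.66, +0.59 and +0.37 with it. In the other direction, the MGE interneuron mean was 9.25, 9.22 and 8.97 in controls and 8.85, 8.97 and 8.75 in Htr3a-KO, where control array 3 and Htr3a-KO array 2 nearly met. The endothelial and mural mean overlapped, at 6.83, 6.71 and 7.58 in controls and 7.81, 7.88 and 7.36 in Htr3a-KO, with control array 3 among the Htr3a-KO arrays. In the two-sided exact permutation test p was 0.1, the smallest possible, for the astrocyte, progenitor, oligodendrocyte and MGE means. With 3 against 3 arrays this p says only that the genotypes do not overlap, as for 20.7% of single genes. It cannot test the lists, which were chosen with earlier results of these data known. The same p was found for the serotonin list, whose mean includes the targeted gene Htr3a. It was also found for the nicotinic receptor, semaphorin, Slit and Robo guidance, apoptosis, cholesterol synthesis and chromatin lists. For every other list it was 0.2 or more. Dio2, which is not among the astrocyte markers, was lowest in control array 1. So were Slco1c1 and the gap junction gene Gja1, which are members of the astrocyte list and part of its mean. The part of these cell types in the other differences was not tested.

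**Figure D4:**
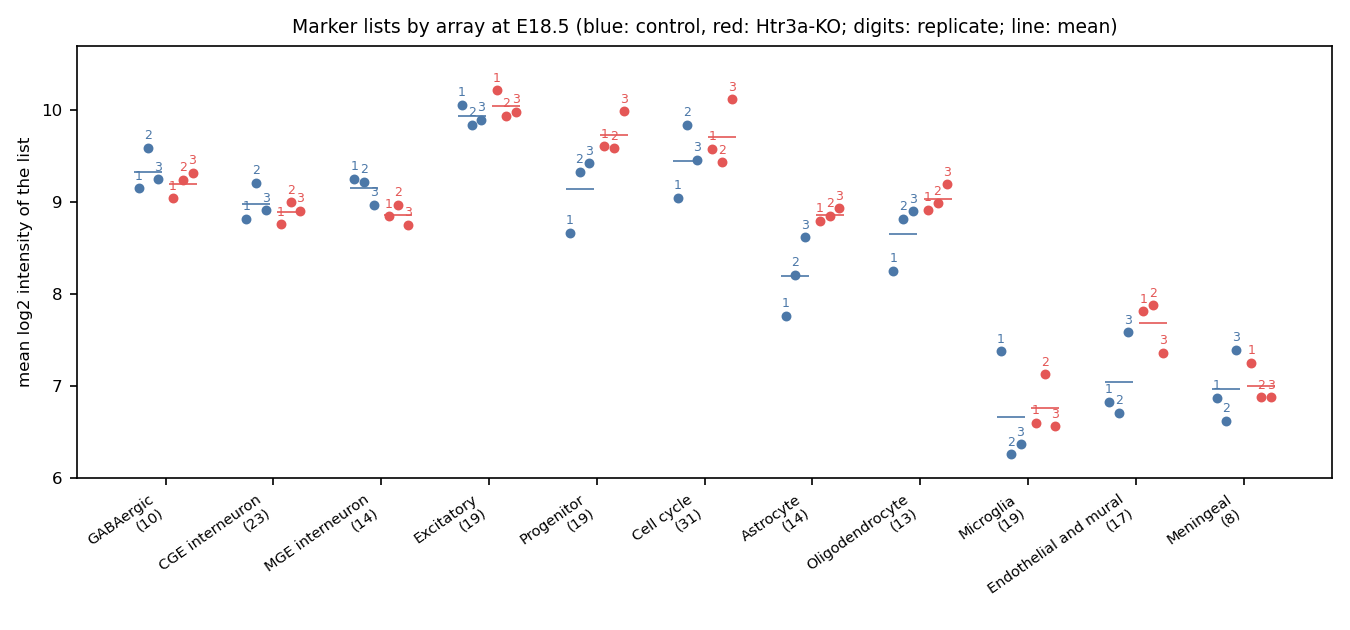
Mean log2 intensity of each marker list (number of genes in brackets) on each E18.5 array, with replicate numbers and group means (lines). The progenitor, astrocyte and oligodendrocyte means do not overlap between genotypes, with astrocyte means of 7.76 to 8.62 in controls and 8.79 to 8.93 in Htr3a-KO, the MGE interneuron means barely separate in the other direction, and GABAergic, CGE, excitatory and microglia means overlap. The CGE mean includes the targeted gene Htr3a (−3.51). Means of some lists that mark no cell type, not drawn here, were also apart.

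Genes of neuronal excitability had 0 members past the threshold. Of 24 GABA-A and glutamate receptor genes 5 were higher and 3 lower at an unadjusted p under 0.05, with a median of +0.17. The AMPA receptor subunit gene Gria3 read 8.12, 7.78 and 8.20 in controls and 9.08, 8.90 and 8.44 in Htr3a-KO (+0.77, adjusted p = 0.231). The NMDA receptor subunit gene Grin2b differed by +0.76 (adjusted p = 0.364), the metabotropic receptor Grm7 by +1.09 (adjusted p = 0.315) and the GABA-A subunit gene Gabra4 by −0.64 (adjusted p = 0.328). Of 27 voltage-gated channel genes 6 were higher and 2 lower, with a median of +0.19. Cacna1a, the pore of P/Q-type calcium channels, read 6.13, 6.21 and 6.65 in controls and 7.12, 7.03 and 7.13 in Htr3a-KO (+0.76, adjusted p = 0.288). The potassium channel gene Kcna1 differed by −0.92 (adjusted p = 0.310) and the sodium channel gene Scn2a by +0.92 (adjusted p = 0.386), the latter with overlap.

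Calcium signalling and synaptic genes stayed near the median of all genes. Of 31 calcium signalling genes 1 was higher at an unadjusted p under 0.05, the kinase gene Camk4 (+0.83, adjusted p = 0.337), and the median was +0.03. Of 29 genes of synaptic assembly and release 0 reached that level and the median was −0.03, with Stx1a at +0.40 and Homer1 at −0.18. Of 28 immediate early genes, a class that firing and cell handling switch on, 2 were higher and 1 lower, with a median of −0.08. Fos read 13.45, 13.09 and 13.31 in controls and 13.31, 13.42 and 13.04 in Htr3a-KO (−0.03, adjusted p = 0.964). Egr1 differed by +0.30 (adjusted p = 0.499), Ccn1 by +1.16 (adjusted p = 0.238) and Zfp36 by +0.66 (adjusted p = 0.338). The lower one was Nr4a3, and 18 of the 28 members had a negative difference.

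Most genes of cholesterol synthesis gave negative differences. Of 19 genes 15 had a negative difference, 6 were lower and 0 higher at an unadjusted p under 0.05, and the median was −0.17, with 11 lower and 1 higher over 39 probe sets. Hsd17b7, an enzyme of the late pathway, read 10.78, 10.54 and 10.65 in controls and 9.88, 10.19 and 10.14 in Htr3a-KO. Its groups did not overlap (−0.59, SE 0.12, adjusted p = 0.141). The enzyme genes Msmo1 and Idi1 differed by −0.60 (adjusted p = 0.318) and −0.33 (adjusted p = 0.386), the regulator Srebf2 by −0.35 (adjusted p = 0.318), and Hmgcs1, at the head of the pathway, by +0.21 (adjusted p = 0.532).

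The 45 oxidative phosphorylation genes had a median of 0.00, with 1 higher and 2 lower, and the 38 ribosomal protein genes a median of +0.06, with 4 higher and 1 lower. The lower one, Rps25, read 9.80, 10.06 and 9.80 in controls and 8.47, 9.05 and 9.37 in Htr3a-KO (−0.92, adjusted p = 0.160). Rps25 lies within 20 Mb of Htr3a on chromosome 9 and gave −0.80 at E14.5 and −0.74 at P2. In the thyroid hormone and retinoid list of 14 genes, 2 were higher and 3 lower. The higher ones were Dio2 and the thyroid hormone transporter Slco1c1, which read 8.09, 8.76 and 8.60 in controls and 9.64, 9.43 and 9.56 in Htr3a-KO (+1.06, adjusted p = 0.231). The receptor gene Thra differed by −0.04 and its target Klf9 by −0.16. Of 28 heat shock and unfolded protein response genes 1 was higher and 1 lower, the stress transcription factor Atf4 at −0.53 (adjusted p = 0.264), with a median of −0.10. Of 20 apoptosis genes 3 were lower and 0 higher, with a median of −0.07, and Bok, a Bcl2 family member, at −0.36 (adjusted p = 0.224). Splicing and chromatin genes had medians of −0.01 over 39 genes and +0.07 over 38 genes, with 0 and 4 at an unadjusted p under 0.05.

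**Figure D5:**
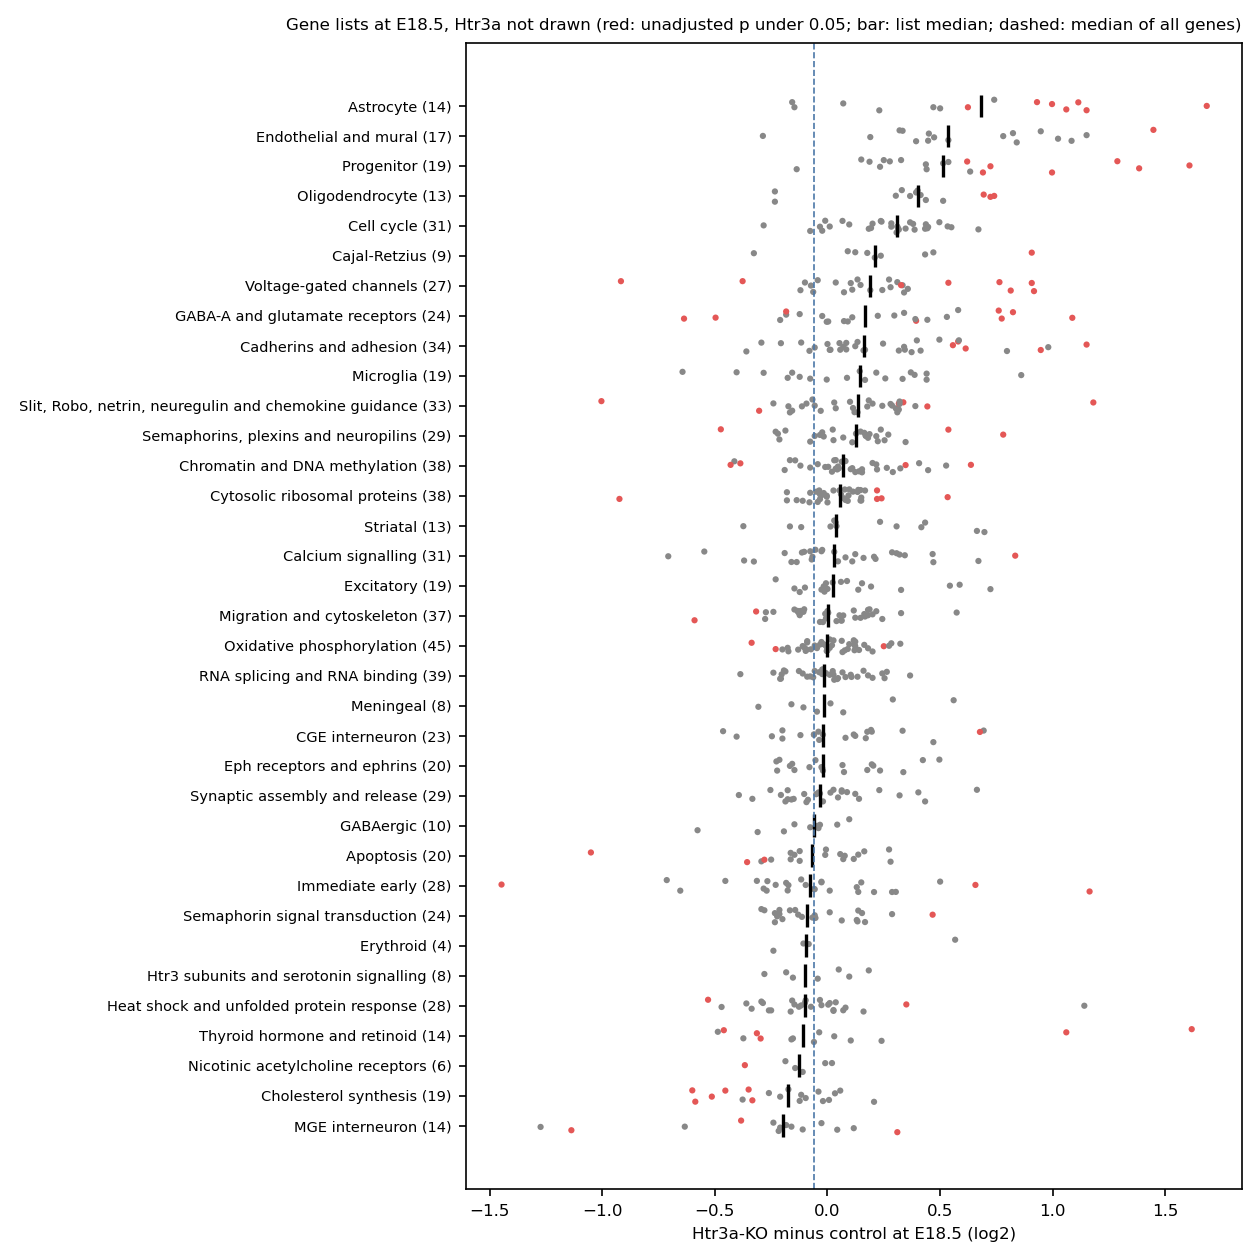
Each point is a list member's Htr3a-KO minus control difference at E18.5 (log2), red at an unadjusted p under 0.05, with the list median as a bar and the median of all genes (−0.06) dashed. Numbers in brackets are members tested. Htr3a is not drawn but counts toward the medians of its lists. Astrocyte (+0.68), endothelial (+0.54) and progenitor (+0.51) medians lie highest and MGE interneuron markers (−0.20) lowest.

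The E18.5 differences were set against those at the other ages, which come from other arrays. The difference between the E18.5 effect and the mean of the E14.5 and P2 effects passed for 0 of 14292 genes in limma (0%), with 1126 at an unadjusted p under 0.05 (7.88%), and for 0 of 26104 probe sets (0%), with 2433 at that level (9.32%). So no effect can be called particular to E18.5. At E14.5 2 genes (0.014%) and 6 gene-named probe sets (0.023%) passed, and at P2 5 genes (0.035%) and 9 probe sets (0.0345%). All 3 genes called at E18.5 had the same sign at the other ages: Lars2 gave +0.94 and +0.83, and Pts −0.55 and −0.86. Of the 21 probe sets 19 had the same sign at E14.5, 16 at P2 and 14 at both. Over all genes the shares with the same sign were 51.7%, 55.5% and 29%. Over the 50 genes with the smallest p at E18.5 they were 68%, 80% and 58%.

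The values at the other ages were as follows. The first Lztfl1 probe set averaged 3.87 in controls and 8.14 in Htr3a-KO at E14.5, and 3.68 and 7.45 at P2. Ppp1cb gave −1.21 (adjusted p = 0.0253) and −1.25 (adjusted p = 0.0214). Mapk6 gave +0.11 and +0.49, Atg4c +0.07 and −0.02, Map3k9 −0.04 and +0.20 and Calu +0.10 and −0.06, all with an adjusted p above the threshold. The difference of effects for Mapk6 was +1.42 and for Atg4c +1.28, each at an adjusted p of 0.293. Of the genes that did not pass at E18.5, Dis3l, within 20 Mb of Htr3a on chromosome 9, gave −0.67 at E14.5 and −0.82 at P2. Nr4a3 gave +0.79 and −0.08, with a difference of effects of −1.80 (SE 0.33).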

How the data were processed

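RNA from GFP-sorted cells was hybridised to Affymetrix Mouse Genome 430 2.0 arrays. The deposited values are log2 intensities per probe set, which the authors made with RMA in Partek Genomic Suite 6.6, per the series' design text and the submitters' processing notes. RMA equalises the arrays' distributions, so a shift of most transcripts is not visible. Of 45101 probe sets, 34945 have 1 gene in the array annotation, 932 several and 9160 none. For the gene test, each gene was taken from its probe set of highest mean, and the lowest 30% of probe sets by mean (below 5.255) were left out. All 18 arrays were fitted with a mean per age and genotype in limma 3.58.1 (R 4.3.3), with 12 residual degrees of freedom, an empirical Bayes test and Benjamini-Hochberg adjustment. The same fit was run per probe set, and the scripts were tested on simulated data. Replicate numbers were not used to pair the arrays, since the labels do not say what they stand for. Same-numbered control and Htr3a-KO arrays deviated with correlations of 0.16, −0.32 and −0.08, and differently numbered ones with −0.34 to 0.34. With so few arrays these values cannot decide whether the numbers mark a pairing.

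Members and gene lists were chosen with earlier results of these data known. Named genes are Htr3a, Htr3b, Plxna4, Sema3a, Nrp1, Gad1 and Gad2, the genes that passed, the 5 smallest p in each direction among those that did not, and up to 4 members per list by highest mean. Others were chosen after their values were seen. Gene models known only by number were counted, not named. Gene neighbours are from RefSeq, assembly GRCm38.p6. The number of arrays limits the precision. Alternatives covered the filter, the probe set rule, scaling, variance priors, array weights, the replicate block, thresholds and leaving out each array.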

Additional observations from a re-analysis of the deposited data

Results flagged for a closer look

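Probe sets to which the array annotation gives no single gene lay outside the comparison. In a limma fit over all 31530 probe sets above the filter, 108 of the 5426 such probe sets were higher in Htr3a-KO at E18.5 and 7 were lower (2.12% past an adjusted p of 0.05), against 39 higher and 31 lower of 26104 gene-named ones (0.268%). For 19 of the 108 the control mean lay below the filter level of 5.255, which leaves the size of their rise unknown. The rises of the other 89 ran from 0.51 to 2.53 with a median of 1.23. The largest of these was in 1 unnamed probe set that read 5.28, 5.16 and 5.74 in controls and 8.06, 8.08 and 7.64 in Htr3a-KO, a difference of 2.53 (SE 0.37, limma adjusted p = 0.0101). No gene is named for it here.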

How the results depend on the processing

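The number of genes called at E18.5 was 5 with no filter, 14 with probe sets averaged per gene, 21 with every probe set, 876 with array quality weights (276 higher, 600 lower) and 16 at an adjusted p under 0.10, against 3. Leaving out single arrays gave 2 to 20, the highest without control array 3. Genes past the test of the difference between ages were 2 with no filter, 1 with median centring, 2 with array weights and 1 at an adjusted p under 0.10, against 0, with 0 to 1 when single arrays were left out. List genes called were 2 with the mean of probe sets, 2 with every probe set, 59 with array weights and 3 at an adjusted p under 0.10, against 1, with 1 to 3 when single arrays were left out. Probe sets called were 32 with no filter, 8 with only the 6 E18.5 arrays, 32 with a trended variance, 2875 with array weights, 48 at an adjusted p under 0.10 and 185 over all probe sets, against 21, with 6 to 278 when single arrays were left out. The cause of these shifts was not tested.

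With the replicate number as a block, 8 genes, 33 probe sets, 0 genes for the difference between ages and 1 list gene were called. Whether the numbers mark a pairing is not in the labels. Pts had an adjusted p of 0.0546 under that block. Over 19 alternatives Htr3a kept its call, Lars2 lost it in 1 and Pts in 9. Nrp1 changed sign to 0.062 with probe sets averaged, and with single arrays left out it ran from −0.33 (without control array 3) to 0.14 (without control array 2), also turning without control array 1 and Htr3a-KO array 2. Plxna4 changed sign to −0.37 with probe sets averaged and −0.069 with array weights, and with single arrays left out it ran from −0.068 (without control array 2) to 0.27 (without control array 3), also turning without Htr3a-KO array 1. Gad2 ran from −0.49 (without control array 3) to 0.03 (without control array 2). Of genes at an unadjusted p under 0.05, 73.3% were lower, against 82.9% with median centring. Without control array 2 that share was 62.5%. Signal near background limits Aqp4, Htr3b and the control level of both called Lztfl1 probe sets.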
